A study of Mus musculus with 6 samples.

Results

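Laminins and the proteins that link them into the basement membrane were followed through 10 genes in MEFs (mouse embryonic fibroblasts), connective-tissue cells cultured from embryos. The genes were chosen by name, with no threshold on their measured values, but with earlier results of these data known. They came from the 55487 genes listed for each library: the laminin α chains Lama2, Lama4 and Lama5, the β chains Lamb1 and Lamb2, the γ chain Lamc1, the nidogens Nid1 and Nid2, and the heparan sulphate proteoglycans Hspg2 (perlecan) and Agrn (agrin). All 10 were matched in GRCm38, and all 10 passed the filter on low counts. A basement membrane is the thin sheet of matrix on which epithelia and endothelia sit and which wraps muscle, fat and Schwann cells. Each laminin is a trimer of an α, a β and a γ chain. The α chain binds integrins and dystroglycan at the cell surface. In many laminins, but not all, the short arms of the chains join them into a network. Nidogens and perlecan tie this network to the collagen IV network, and agrin ties laminin to dystroglycan. Cultured fibroblasts are known to secrete such proteins, although fibroblasts in tissue do not sit on a basement membrane.

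RNA was sequenced from 6 libraries: knockout (KO) MEFs at passages 2, 3 and 4 and wild-type (WT) MEFs at the same passages, 1 library for each genotype and passage. A passage is a round of detaching and replating. The cells were untreated and in ordinary culture per the labels, which name neither the gene knocked out nor the strain, the age of the embryos or the number of embryos and cultures. The knockout could therefore not be checked in its own transcript. The p-values measure only the spread between these libraries. Where a fit holds genotype alone, that spread includes the differences between passages, and the rest may be technical. An SD over the 3 libraries of a genotype likewise includes passage.

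Library depth at passages 2, 3 and 4 was 27361852, 67760880 and 30473493 expected counts in KO, against 42335628, 41933793 and 24853121 in WT. Genotype was taken from the sample titles. In a second label field, the KO libraries of passages 3 and 4 are tagged WT. Xist, a noncoding RNA made by the inactive X chromosome, had 417 to 567 CPM in KO libraries. In WT libraries it had 0.118 to 0.301 CPM (5 to 12 counts). Of the Y-linked genes 4 of 4 were lower in KO libraries. Genotype and the sex of the cultures therefore cannot be told apart in any result below. All 12 fibroblast markers were expressed, with a summed level of 12360 to 14128 TPM in KO libraries and 17885 to 23171 TPM in WT libraries. Of them 5 were called lower in KO (Col1a1, Col1a2, Col3a1, Dcn and Pdgfra), against 1.55% of all genes tested. Levels of one gene are given as CPM (counts relative to a library's total, adjusted by the TMM method). Levels of different genes are compared as TPM, which is scaled for transcript length. Fewer cells of a type and less RNA per cell cannot be told apart in such bulk RNA.

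Nid1 and Lamb1 had the highest levels per length and Lama5 and Lama2 the lowest. Nid1 averaged 260.5 ± 19.7 TPM over the 6 libraries (SD), above 97.2% of the 16603 genes tested. Lamb1 averaged 208 ± 23.0 TPM, Hspg2 143.8 TPM, Agrn 139 TPM, Lamc1 97.8 TPM, Lama4 90.3 TPM, Lamb2 61.9 TPM, Nid2 20.9 TPM, Lama2 9.22 TPM and Lama5 3.60 TPM. Nid1 lay above Lamb1 and Lamb1 above Hspg2 in 6 of 6 libraries. Hspg2 and Agrn did not separate, since Hspg2 was above Agrn in 3 of 6 libraries, of both genotypes. Lamc1 was also above Lama4 in 3 of 6 libraries, but this order followed genotype. Lamc1 was the higher in all 3 KO libraries (98.7 against 75.4, 78.0 against 60.8 and 97.4 against 73.1 TPM at passages 2, 3 and 4). Lama4 was the higher in all 3 WT libraries (132.9 against 128.0, 94.1 against 88.3 and 105.2 against 96.4 TPM). Nid2 was above Lama2 in 5 of 6 libraries.

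Within the α chains the fibroblasts expressed mainly Lama4, the chain of mesenchymal and vascular laminins. Lama4 made up 81.6, 80.1 and 83.3% of the summed α chain TPM in KO libraries at passages 2, 3 and 4, against 86.1, 85.2 and 88.2% in WT libraries. Every KO share lay below every WT share, and the mean difference was −4.85 percentage points (exact permutation test, 2-sided, p = 0.1, the smallest that 3 against 3 libraries allow; adjusted over the 8 shares computed, 0.229). Lama2, the chain of muscle and Schwann cell laminin, held 8.38 to 11.6% in KO libraries and 6.37 to 8.51% in WT libraries. Lama5, the chain of epithelial and vessel basement membranes, held 3.36 to 5.07% in KO libraries and 1.12 to 4.16% in WT libraries. The ranges overlapped for both.

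Among the β chains Lamb1, which is used widely in embryonic tissue, was the main chain. Its share was 81.5, 79.6 and 78.1% in KO libraries and 76.0, 71.5 and 74.97% in WT libraries at passages 2, 3 and 4. All 3 KO shares were above all 3 WT shares, by 5.60 points on average (exact permutation p = 0.1, adjusted 0.229). Lamb2, the β chain of the synapse and the kidney filter, took nearly all of the rest, with 18.0 to 21.8% in KO libraries and 23.7 to 28.2% in WT libraries. Lamc1, the γ chain of most laminins, held 92.7 to 94.2% of γ chain TPM in KO libraries and 93.9 to 96.8% in WT libraries.

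Summed over each kind of chain, β chains exceeded the others per length. The α chains came to 92.4, 76.0 and 87.8 TPM in KO libraries at passages 2, 3 and 4, and to 154, 110 and 119 TPM in WT libraries, with every KO sum below every WT sum. The γ chains came to 106, 83.2 and 103 TPM in KO libraries and 136, 91.2 and 99.8 TPM in WT libraries. The ratio of α to γ chain TPM, a quantity chosen after seeing the data, was 0.868, 0.913 and 0.848 in KO libraries and 1.13, 1.21 and 1.20 in WT libraries. The groups did not overlap (KO minus WT −0.303, exact permutation p = 0.1, the smallest possible), and leaving out each library in turn gave −0.326 to −0.287. The ratio of β to γ chains was 2.15, 3.19 and 2.93 in KO libraries and 2.08, 2.69 and 2.98 in WT libraries, and these overlapped.

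**Figure D1:**
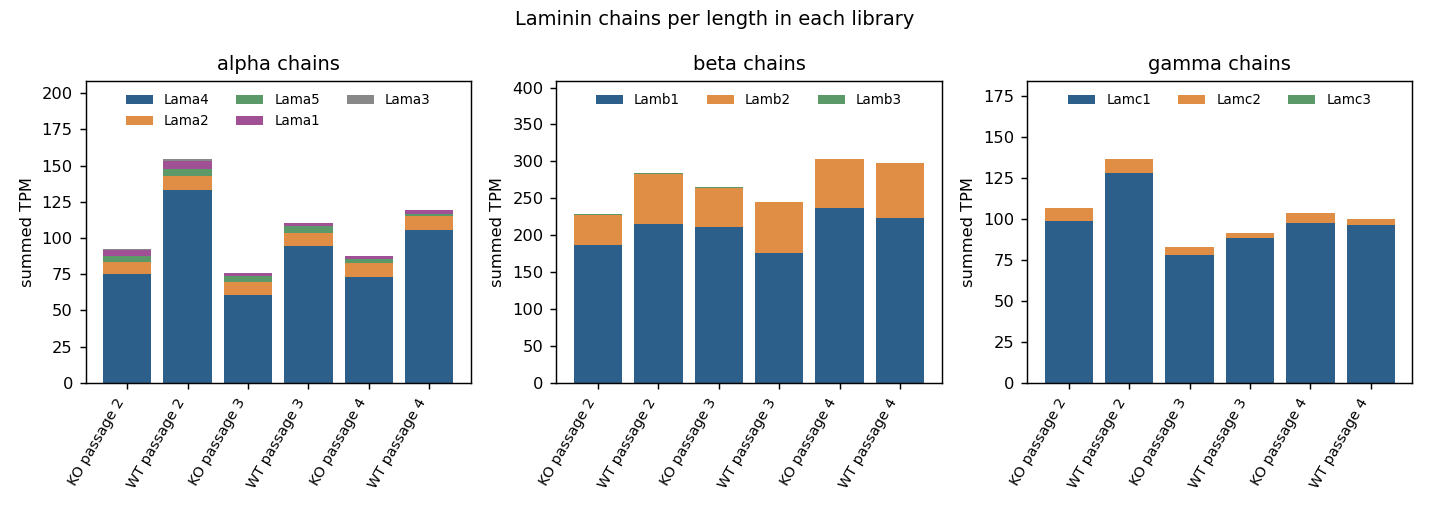
Stacked bars of the TPM of the α, β and γ laminin chains in each library, with KO left of WT at each passage and 1 library per bar. The α bars of the KO libraries, mostly Lama4, are all shorter than those of the WT libraries, while the β and γ bars of the genotypes overlap.

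Between genotypes, 1 of the 10 genes, Lama4, was called, and it was lower in KO. The background for this count was 412 of the 16603 genes tested, or 2.48% (edgeR quasi-likelihood test, Benjamini-Hochberg adjusted p under 0.05), of which 155 (0.934%) were higher and 257 (1.55%) lower in KO; fitted on log2(TPM + 1) with limma the split was 219 higher and 168 lower, and 0 of the 10 genes were called. Fitted changes were negative for 9 of the 10 genes and positive for Lama5, with a median log2 change of −0.28, beside a median of −0.01 and 51.6% negative changes over all genes tested. On log2(TPM + 1) it was 7 of 10, with Lamb1, Hspg2 and Lama5 positive. Deviations of the KO and WT libraries from their genotype means correlated at 0.488 and 0.416 at passages 2 and 4, but at only 0.137 at passage 3. With passage as a block, a fit with 2 residual degrees of freedom, Lama4, Lamb2, Nid2 and Agrn were called, all lower in KO. That is 4 of 10, against 11.1% of all genes under the same fit (4.69% higher and 6.37% lower in KO).

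Lama4 (ENSMUSG00000019846, GRCm38 chromosome 10, 38965515 to 39110188, plus strand) had 272, 198 and 222 CPM in KO libraries at passages 2, 3 and 4, against 426, 365 and 381 CPM in WT libraries. The highest KO library lay below the lowest WT library. Means were 231 ± 37.4 CPM in KO and 390 ± 31.7 CPM in WT (SD, n = 3 each), a log2 change of −0.76 ± 0.14 (SE; edgeR adjusted p = 0.0378). The difference within passages was −0.65, −0.88 and −0.78 on the log2 scale, and with passage as a block it was −0.77 ± 0.09 (edgeR adjusted p = 0.00562). The call did not hold on log2(TPM + 1) (−0.65, limma adjusted p = 0.0750), nor without any 1 library other than KO passage 2. Those omissions gave −0.80 to −0.66 with edgeR adjusted p between 0.0513 and 0.201.

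Lamb2 (ENSMUSG00000052911, GRCm38 chromosome 9, 108479736 to 108490530, plus strand) had 103, 114 and 139 CPM in KO libraries at passages 2, 3 and 4, against 148, 177 and 181 CPM in WT libraries. It also had no overlap between the genotypes, and it was higher at each later passage in both. The log2 change was −0.51 ± 0.14 (edgeR adjusted p = 0.104), which missed the threshold. With passage as a block the change was −0.51 ± 0.09 (edgeR adjusted p = 0.0184).

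Agrn (ENSMUSG00000041936, GRCm38 chromosome 4, 156165290 to 156197488, minus strand) encodes agrin, which at the nerve ending gathers acetylcholine receptors. It had 344, 415 and 493 CPM in KO libraries at passages 2, 3 and 4, against 489, 664 and 616 CPM in WT libraries. KO was lower at each passage, although the KO library of passage 4 was level with the WT library of passage 2. The log2 change was −0.50 ± 0.17 (edgeR adjusted p = 0.152), and −0.50 ± 0.10 with passage as a block (edgeR adjusted p = 0.0267).

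Nid2 (ENSMUSG00000021806, GRCm38 chromosome 14, 19751265 to 19811787, plus strand) is the less abundant nidogen in these cells. It had 39.9, 24.2 and 19.4 CPM in KO libraries at passages 2, 3 and 4, against 88.7, 103 and 36.9 CPM in WT libraries. KO was lower within every passage, by 1.15, 2.09 and 0.92 on the log2 scale, but the WT library of passage 4 lay below the KO library of passage 2. Of the 10 genes it had the largest fitted genotype change, −1.46 ± 0.42, with an edgeR adjusted p of 0.115. With passage as a block it was −1.40 ± 0.23 (edgeR adjusted p = 0.0225), and without the WT library of passage 4 it was −1.78 (edgeR adjusted p = 0.0344). Rtraf, a gene on the other strand, overlaps 437 of the 5174 exonic bases of Nid2, and whether reads were assigned by strand is not given; Rtraf had 70.4 to 95.7 CPM in KO libraries and 94.6 to 112 CPM in WT libraries, and its part in the Nid2 values was not tested.

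Nid1, the main nidogen, had 715 to 780 CPM in KO libraries and 805 to 841 CPM in WT libraries. All KO values lay below all WT values, but the log2 change was only −0.13 ± 0.09 (edgeR adjusted p = 0.467). Nid1 made up 93.0, 95.7 and 97.0% of nidogen TPM in KO libraries at passages 2, 3 and 4 and 88.1, 87.3 and 94.9% in WT libraries, with overlap. Lama2 had 37.8 to 40.7 CPM in KO libraries and 42.2 to 52.4 CPM in WT libraries, again without overlap (log2 change −0.26 ± 0.11, edgeR adjusted p = 0.231). In all, 4 of the 10 genes had KO CPM wholly below WT CPM (Lama2, Lama4, Lamb2 and Nid1), against 14.1% of all genes tested. For 0 it lay wholly above, against 13.1% (27.2% in either direction, also by CPM). By TPM the genotypes stayed apart for Lama4 and Lamb2 but overlapped for Lama2 and Nid1. Lama2 reached 9.7 TPM at KO passage 4, above the 9.4 TPM of WT passage 3. Nid1 reached 285.4 TPM at KO passage 4, above every WT value (245.2 to 276.8 TPM).

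Lamc1, Lamb1 and Hspg2 had overlapping groups. Lamc1 had 387, 289 and 324 CPM in KO libraries and 463, 374 and 388 CPM in WT libraries at passages 2, 3 and 4, lower in KO at each passage (log2 change −0.29 ± 0.14, edgeR adjusted p = 0.288, and 0.0708 with passage as a block). Lamb1 had 627 to 669 CPM in KO libraries and 652 to 758 CPM in WT libraries (log2 change −0.09 ± 0.10, edgeR adjusted p = 0.650). Hspg2 encodes perlecan, whose long core protein carries heparan sulphate chains that hold growth factors. It had 1307, 957 and 1110 CPM in KO libraries and 1169, 1237 and 1242 CPM in WT libraries, with the KO library above the WT library at passage 2 and below it afterwards. Its log2 change was −0.11 ± 0.13 (edgeR adjusted p = 0.674). At passage 4 the direction depended on the scale for Lamc1 and Hspg2. On TPM the KO library was above the WT library there, at 97.4 against 96.4 for Lamc1 and 154.9 against 144.4 for Hspg2.

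**Figure D2:**
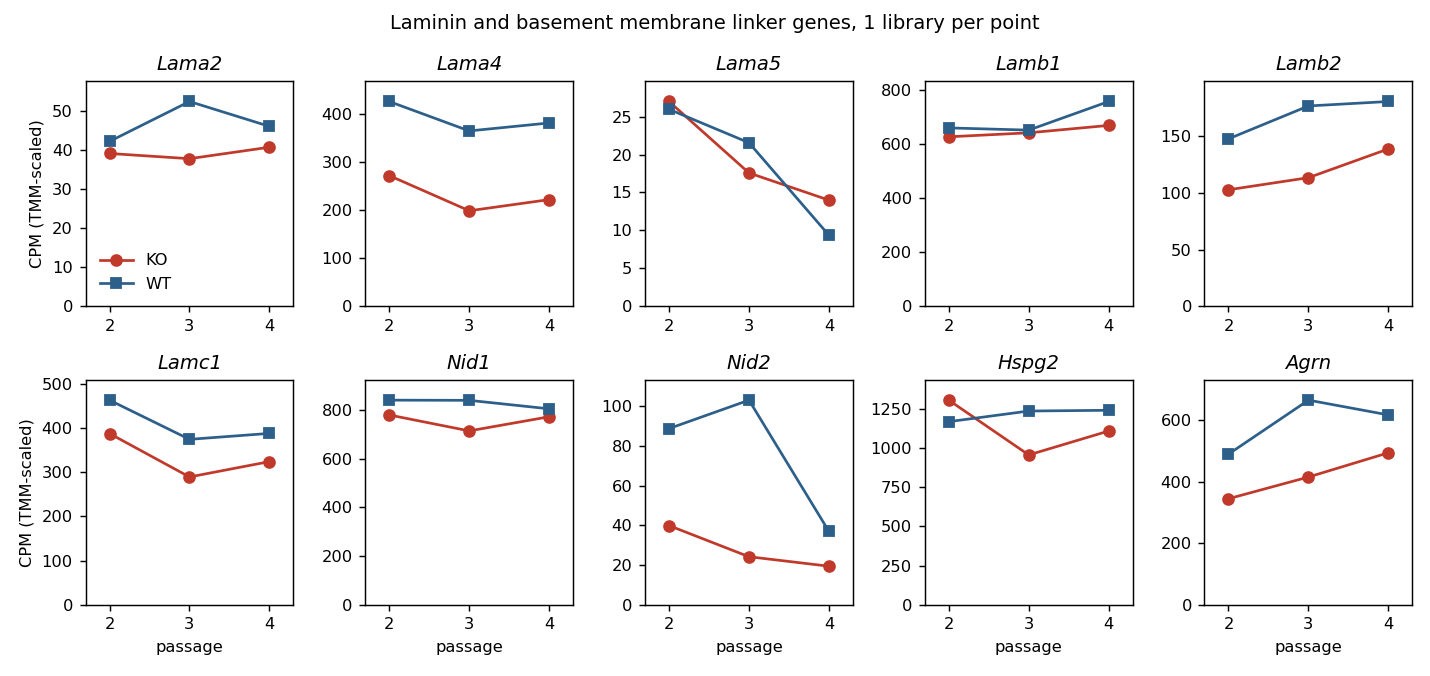
CPM of each of the 10 genes against passage, with 1 library per point, KO as red circles and WT as blue squares. Lama4, Lamb2, Lama2 and Nid1 have every KO point below every WT point on this scale, and Lama5 falls along both lines. By TPM, Lama2 and Nid1 overlap.

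**Figure D3:**
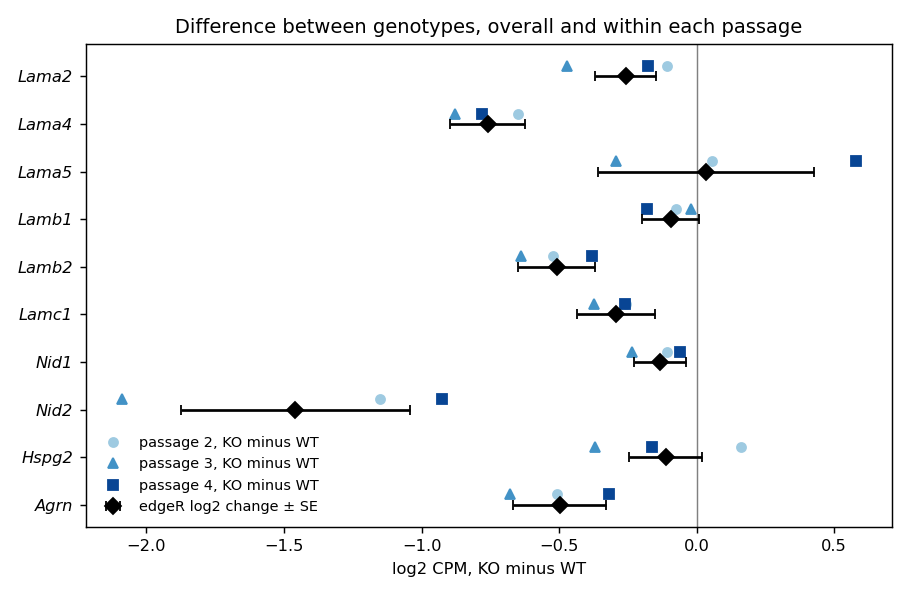
Log2 CPM difference, KO minus WT, for each of the 10 genes: the fitted change with its standard error and the difference within each passage. Lama4 lies at −0.76 with all 3 passages between −0.88 and −0.65, and Nid2 has the widest spread, from −2.09 to −0.92.

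Over passages, 1 of the 10 genes was called, Lama5, which fell. The background was 1038 of 16603 genes, or 6.25% (edgeR, linear term for passage beside genotype), with 3.48% falling and 2.78% rising. Lama5 (ENSMUSG00000015647, GRCm38 chromosome 2, 180176373 to 180225859, minus strand) had 27.0, 17.6 and 14.0 CPM in KO libraries at passages 2, 3 and 4 and 26.0, 21.6 and 9.35 CPM in WT libraries. It declined at each step in both genotypes, and the genotypes overlapped. The slope was −0.59 ± 0.11 log2 units per passage (edgeR adjusted p = 0.0203), and from passage 2 to 4 the change was −0.95 in KO and −1.47 in WT. The call was lost without either passage 2 library or either passage 4 library (slopes of −0.70 to −0.44, edgeR adjusted p between 0.0565 and 0.0923), and with effective lengths as offsets (−0.56, edgeR adjusted p = 0.202).

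Some markers of other cell types fell over the same passages, beside 3.48% of all genes tested that were called falling. Epithelial markers summed to 34.5, 27.3 and 20.1 TPM in KO libraries at passages 2, 3 and 4 and to 33.1, 8.75 and 7.15 TPM in WT libraries, and 4 of the 8 tested fell. Of the 11 endothelial markers 5 fell (Vwf, Esam, Pecam1, Cdh5 and Tie1), each at 3.11 TPM or less in every library. All 11 summed to 49.5 to 70.6 TPM in KO libraries and 84.2 to 90.6 TPM in WT libraries. Most of that sum was Flt1, at 47.0, 30.7 and 37.3 TPM in KO libraries and 64.6, 69.4 and 71.7 TPM in WT libraries, and Flt1 was called lower in KO (−1.02, edgeR adjusted p = 0.0382). The fitted genotype change was positive for 7 of the 11, with a median of 0.55. Of 7 tested Schwann cell and neural crest markers 4 fell, as did 4 of 5 adipocyte, 11 of 12 macrophage and 1 of 4 skeletal muscle markers, and in these 4 lists the summed TPM was lower at passage 4 than at passage 2 in both genotypes. Pericyte and smooth muscle markers summed to 5012 to 7055 TPM in KO libraries and 3298 to 4459 TPM in WT libraries. Over passages 2 rose and 1 fell. Most of that sum was Acta2 (2869 to 4737 TPM in KO libraries, 2044 to 3001 TPM in WT libraries) and Tagln (2009 to 2138 and 1175 to 1347 TPM). The fitted genotype change was positive for 6 of the 9 tested and negative for Notch3, Abcc9 and Kcnj8 (−1.14, −0.67 and −0.54), with 0 called. Between genotypes all 12 macrophage markers had negative changes (median −0.69). Of them 0 were called, and 5 were called lower in KO with passage as a block (Adgre1, Csf1r, Ptprc, Itgam and Ctss). With the block Cnn1, Myh11, Tagln and Acta2 of smooth muscle, Krt18 and Krt19 of epithelia and Des of muscle were called higher in KO, and Lpl of adipocytes lower. The same fit called 4.69% of all genes tested higher and 6.37% lower in KO. Of all these lists, Myf5 and Higd1b were at 0 in every library. The part of such cells in the slope of Lama5, and in the genotype differences of Lama4, Lamb2, Nid2 and Agrn, was not tested.

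The other slopes missed the threshold. Nid2 had −0.57 ± 0.16 log2 units per passage (edgeR adjusted p = 0.0967), Lamb2 0.18 ± 0.05 (edgeR adjusted p = 0.0929) and Agrn 0.21 ± 0.07 (edgeR adjusted p = 0.116). The remaining 6 genes had slopes between −0.13 and 0.07. The difference between the KO and WT slopes was called for 0 of the 10 genes and 0 of all 16603 (0%; edgeR), with 1137 genes but none of the 10 at an unadjusted p under 0.05. DESeq2 called 83 genes and limma-voom 0, none of them among the 10.

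Lamb2 and Agrn had the most alike profiles among the 10 genes, with a Pearson r of 0.979 between their log2 CPM over the 6 libraries. Lama4 was most like Nid1 (r = 0.917) and Lamc1 most like Lama4 (r = 0.899), while Lama5 and Lamb1 ran opposite (r = −0.861). Among 10727 other protein-coding genes, the most alike was Spg20 for Lamb2 (r = 0.999), Sec22b for Agrn (r = 0.999), Ptpru for Lama4 (r = 0.998), Tmem45a for Nid2 (r = 0.996), Bri3bp for Lama5 (r = 0.995) and Lrp1 for Hspg2 (r = 0.965). Lamc1 was most like Nbas (r = 0.998) and then Fbn1, which encodes fibrillin (r = 0.997). These values describe 6 libraries that share genotype and passage, and the ranking covers many genes over few points.

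The stretch before the RefSeq start of each gene was compared by its letters. RefSeq promoter windows on GRCm38.p6 were at hand for 7 of the 10 genes, not for Lama4, Lamc1 and Nid2. In each, 250 bases upstream of the RefSeq start were read. The Lamb2 window runs 126 bases past the GENCODE start, and those of Hspg2, Nid1 and Lamb1 run 34, 51 and 59 bases past it. The Lama2 window lies wholly inside the GENCODE gene. Lamb2 (chr9:108479612-108479861, plus strand), Agrn (chr4:156197489-156197738, minus strand) and Lama5 (chr2:180225860-180226109, minus strand) are shown because the first pair had the most alike profiles and Lama5 is the gene that fell over passages. Capitals mark GC boxes, the letters GGGCGG on either strand, some of which overlap in Agrn.
Lamb2: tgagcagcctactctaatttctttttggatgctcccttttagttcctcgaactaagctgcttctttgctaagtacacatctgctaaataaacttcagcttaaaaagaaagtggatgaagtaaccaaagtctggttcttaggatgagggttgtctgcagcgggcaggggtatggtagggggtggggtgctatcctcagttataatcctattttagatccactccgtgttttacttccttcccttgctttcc
Agrn: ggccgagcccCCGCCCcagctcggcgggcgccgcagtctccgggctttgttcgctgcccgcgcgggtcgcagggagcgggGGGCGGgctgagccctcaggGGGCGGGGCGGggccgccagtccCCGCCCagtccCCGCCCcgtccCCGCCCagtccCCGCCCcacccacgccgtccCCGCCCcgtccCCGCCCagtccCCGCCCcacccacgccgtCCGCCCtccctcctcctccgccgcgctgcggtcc
Lama5: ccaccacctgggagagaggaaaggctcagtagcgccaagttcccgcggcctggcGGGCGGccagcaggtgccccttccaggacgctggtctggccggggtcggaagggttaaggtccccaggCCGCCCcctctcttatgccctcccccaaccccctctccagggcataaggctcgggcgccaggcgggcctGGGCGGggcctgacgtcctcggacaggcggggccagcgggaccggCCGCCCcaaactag

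The Lamb2 and Agrn windows differ widely in composition although the profiles were alike, but the Lamb2 window is partly inside the annotated gene. Agrn had 83.6% G and C with 12 GC boxes, and Lamb2 had 43.6% with 0. Lama5 had 72.4% and 4 GC boxes, Hspg2 70.0% and 5, Nid1 64.4% and 1, Lamb1 62.0% and 2, and Lama2 47.2% and 0. Over all 32851 windows of the same length the median was 52.4%, and 32.7% held a GC box (8.5% held 3 or more). The CCAAT box (CCAAT on either strand) occurred in Lamb1 and Nid1, against 33.8% of all windows. The TATA box letters TATAAA were in none of the 7 windows and in 12.4% of all. The AP-1 letters TGANTCA were in none of the 7 and in 6.7% of all, and the E-box letters CACGTG in none and in 6.0%, each on either strand. A match describes letters, not a site in use.

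The other genes of the basement membrane were counted in the same fits, beside the backgrounds above (2.48% between genotypes, 6.25% over passages, 11.1% with passage as a block). Where KO and WT CPM are said not to overlap, this held for 27.2% of all genes tested. Of 7 tested further laminin and netrin chains, 0 were called between genotypes (median log2 change 0.06). Ntn1 had the highest level, 27.2 ± 8.01 TPM in KO and 16.1 ± 5.27 TPM in WT (SD, n = 3 each). Ntn4, a netrin that binds the laminin γ chain and blocks the joining of laminins, rose over passages (0.55 per passage, edgeR adjusted p = 0.0196). It had 22.7, 37.3 and 42.9 CPM in KO libraries at passages 2, 3 and 4 and 6.48, 13.1 and 16.1 CPM in WT libraries, so that every KO library was above every WT library. Its genotype change was 1.53 (edgeR adjusted p = 0.0809) and 1.57 with passage as a block (edgeR adjusted p = 0.00169), where Ntn1 was also called higher and Ntn3 lower in KO. Lama3 and Lamb3, chains of the laminin of epidermis, fell over passages from low levels (9 to 133 and 2 to 69 counts per library over both genotypes).

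Of 10 basement membrane collagens, 0 were called between genotypes (median −0.10). With passage as a block 1 was called, Col4a6, which had 2.58 to 4.10 CPM in KO libraries and 5.71 to 6.08 CPM in WT libraries, without overlap (−0.91 ± 0.19, edgeR adjusted p = 0.0296). The highest were Col4a1, at 609 ± 113 TPM in KO and 449 ± 57.2 TPM in WT (log2 CPM change 0.31, edgeR adjusted p = 0.199), and Col4a2, at 347 TPM in KO and 289 TPM in WT (0.18, edgeR adjusted p = 0.382). Over passages Col4a5 rose, with 63.4, 94.6 and 152 CPM in KO libraries and 91.5, 137 and 166 CPM in WT libraries (0.53 per passage, edgeR adjusted p = 0.00464). Col15a1, a collagen of the outer face of the basement membrane, fell from 27.3 to 5.12 CPM over passages 2 to 4 in KO and from 26.7 to 5.55 CPM in WT (−1.19 per passage, edgeR adjusted p = 0.00163). Col18a1 fell as well (−0.31, edgeR adjusted p = 0.0159). The calls of Col4a5 and Col15a1 held without any 1 library.

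Of 18 tested other basement membrane proteins, 1 was higher and 2 were lower in KO (median −0.27). The most abundant, Sparc (3086 ± 397 TPM in KO and 3620 ± 111 TPM in WT) and Fbln2 (1369 ± 195 and 1545 ± 182 TPM in KO and WT), were not called. Fbln1, which encodes fibulin that binds laminin and nidogen, had 97.3, 81.6 and 77.8 CPM in KO libraries at passages 2, 3 and 4 and 157, 224 and 152 CPM in WT libraries (log2 change −1.06 ± 0.17, edgeR adjusted p = 0.0274). Frem1, part of the Fraser complex under embryonic epithelia, had 4.33, 2.44 and 3.43 CPM in KO libraries and 11.7, 15.3 and 10.5 CPM in WT libraries (−1.89 ± 0.25, edgeR adjusted p = 0.0155). Tinagl1, a secreted matrix protein, had 33.5, 42.8 and 47.1 CPM in KO libraries and 18.4, 24.3 and 22.7 CPM in WT libraries (0.92 ± 0.16, edgeR adjusted p = 0.0363). KO and WT did not overlap for any of these 3 genes, which were named because they were called (27.2% of all genes tested did not overlap). Each call was lost without some 1 library, with 2, 3 and 1 of 6 omissions keeping it for Fbln1, Frem1 and Tinagl1. With passage as a block Npnt was also called higher and Egflam and Hmcn1 lower. Over passages Ecm1 rose (0.54, edgeR adjusted p = 0.00254) and Frem2 fell (−1.19, edgeR adjusted p = 0.0271).

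Of 17 tested receptors of laminin, perlecan and agrin, 0 were called between genotypes (median 0.00). The most abundant were Rpsa, at 1650 ± 202 TPM in KO and 1546 ± 115 TPM in WT, and the integrin chain Itgb1, at 861 ± 124 TPM in KO and 760.2 ± 57.9 TPM in WT. Rpsa is also a ribosomal protein gene, and 26.6% of the 64-base words of its transcripts also occur in other genes. With passage as a block 4 were higher (Itga2, Itga3, Itga6 and Cd151) and Dag1 was lower in KO. Dag1 encodes dystroglycan, the shared receptor of laminin α chains, perlecan and agrin, and had 197 to 234 CPM in KO libraries against 238 to 327 CPM in WT libraries, without overlap (−0.41 ± 0.14, edgeR adjusted p = 0.153, and 0.0352 with the block). Itga6, an integrin chain for laminin, fell over passages, with 40.0, 29.2 and 22.3 CPM in KO libraries and 29.0, 19.1 and 13.7 CPM in WT libraries (−0.48, edgeR adjusted p = 0.00623), and so did its partner Itgb4 (−0.54, edgeR adjusted p = 0.0449).

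Of 10 dystrophin complex genes, led by Utrn (45.8 TPM in KO, 40.7 TPM in WT) and Sgce (32.4 TPM in KO, 40.8 TPM in WT), 0 were called between genotypes, while Sntb1, which encodes a syntrophin, fell over passages (−0.49, edgeR adjusted p = 0.0283). With the block Dmd was called higher and Sgce and Sspn lower in KO. Of 10 genes for the sugar chain by which dystroglycan holds laminin, led by Rxylt1 (83.4 TPM in KO, 65.7 TPM in WT) and Pomgnt1 (44.5 TPM in KO, 36.7 TPM in WT), 0 were called in any of these fits. Of 21 genes for making and editing heparan sulphate, led by Ext1 (155.7 TPM in KO, 142 TPM in WT) and Ext2 (87.9 TPM in KO, 90.3 TPM in WT), 0 were called between genotypes, 3 were lower in KO with the block (Sulf1, Hpse and Hs6st1), and Sulf2 and Hs3st3a1 rose over passages (0.43 and 0.52, edgeR adjusted p = 0.0492 and 0.0329). Of the passage calls named in these lists, that of Ecm1 also held in 6 of 6 omissions of 1 library and that of Itga6 in 5, while those of the others, Col4a5 and Col15a1 apart, held in 1 to 3.

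**Figure D4:**
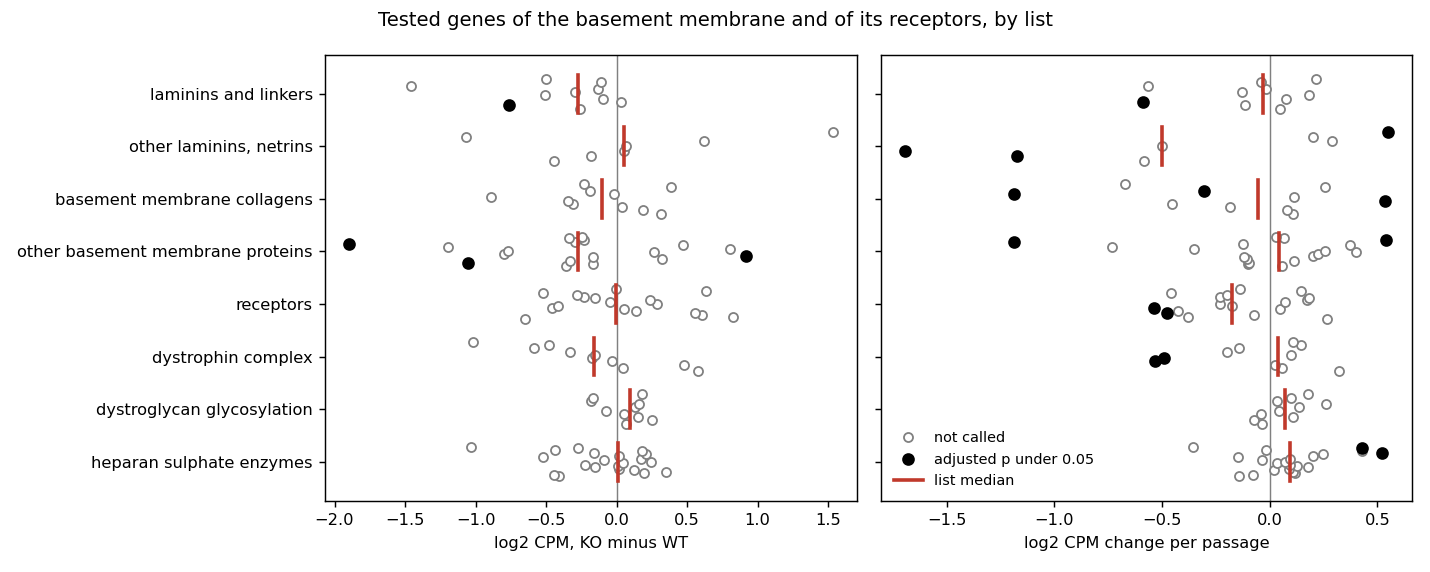
Fitted log2 CPM change, KO minus WT (left) and per passage (right), for every tested gene of the laminins and linkers and of 7 related lists. Filled points passed an edgeR adjusted p of 0.05 and red lines are list medians, −0.28 between genotypes for the laminins and linkers.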

How the data were processed

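Total RNA of MEFs was sequenced in 6 libraries. The submitters' processing notes name Trimmomatic 0.39, RSEM (version not given in the sources used here) and GRCm38. Nothing used here states the aligner settings, annotation or strand handling. The deposited tables hold expected counts, in which the authors' RSEM run divided ambiguous reads between genes, so that 12.0 to 15.8% of values were not whole. They also hold TPM and FPKM values, both scaled by length and depth in the authors' RSEM run (FPKM entered no test), and the effective lengths.

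Of 55487 Ensembl identifiers 55227 matched GENCODE M21 (GRCm38) for symbols and coordinates. Expected counts were rounded. The test was edgeR 4.0.16's quasi-likelihood F test (R 4.3.3, robust, 2-sided) with TMM factors, after a filter by genotype (minimum count 10) that left 16603 genes. P-values were adjusted by Benjamini-Hochberg over all of them. Fits held genotype alone, a passage slope with genotype, or their interaction. As an alternative, genotype was fitted beside passage as a factor, which is the block named above. Changes are log2 with SE. Shares of TPM were compared by exact permutation tests. DESeq2 1.42.0, limma 3.58.1 (voom, and log2(TPM + 1 or 0.1)) and other alternatives were run, and the fits were tested on simulated data. Library depth varied from 24853121 to 67760880 counts. No libraries agreed within counting noise.

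Passage numbers were taken to pair KO and WT libraries, since deviations from the genotype means correlated at 0.488, 0.137 and 0.416 within passages 2, 3 and 4. The genes and lists were chosen with earlier results of these data known. Named were the 10 genes, up to 6 called genes and the 2 highest by TPM per list, sex genes, and for likeness the nearest genes by Pearson r (protein-coding, mean log2 CPM at least 2). Genes called with the block alone, Dag1 and the marker genes named by their calls were named after their values were seen. Some listed genes are not reported here. Promoter windows came from RefSeq (GRCm38.p6). For Agrn, which has 2 windows, that nearest the GENCODE start was used. The RefSeq start used for Lama2 lies 2816 bases inside the GENCODE gene, and that for Lamb2 126 bases inside.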

Additional observations from a re-analysis of the deposited data

How the results depend on the processing

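Between genotypes 1 of the 10 genes was called, and this stayed so with limma-voom, RLE size factors, a minimum count of 50 and effective length offsets. With passage as a replicate block 4 were called, with DESeq2 3 (Lama4, Lamb2 and Nid2) and with no filter 2 (Lama4 and Lamb2). It was 0 on log2(TPM + 1), on log2(TPM + 0.1), with groups by the genotype tag and without both passage 2 libraries (Lama4 −0.83, adjusted p = 0.0760); leaving out 1 library gave 0 to 1 (Lama4 without KO passage 2, Nid2 without WT passage 4, otherwise 0). Over passages 1 was called: 0 without a genotype term and with effective length offsets, 4 with DESeq2 (Lama5 and Nid2 falling, Lamb2 and Agrn rising), 3 with no filter, 2 on log2(TPM + 1), and 0 to 3 leaving out 1 library (Lama5, Nid2 and Agrn without WT passage 3, Lama5 without KO passage 3, otherwise 0). Slope differences gave 0 of the 10 under every alternative run. Counts over all genes moved too, from 412 between genotypes to 1835 with the replicate block, 1661 with DESeq2, 846 with no filter, 59 without passage 2, 0 by the tag, and 38 (without KO passage 3) to 847 (without WT passage 4) leaving out 1 library. Over passages 1038 became 157 without a genotype term, 1709 with DESeq2, 2443 with no filter, and 278 (without KO passage 2) to 1286 (without WT passage 3) leaving out 1 library. For slope differences 0 became 83 with DESeq2, 289 with no filter, 2 on TPM and 0 to 10 leaving out 1 library. The TPM scale moved the median of all genes to 0.08 (pseudocount 1) and 0.10 (pseudocount 0.1) between genotypes, and to 0.15 for slope differences. Uncalled changes reversed sign between genotypes: Lamb1 at 0.0474 and 0.0476 on log2(TPM + 1) and log2(TPM + 0.1), Hspg2 at 0.00627 on both and 0.19 by the tag, Lamc1 at 0.0728 by the tag, and Lama5 at −0.0628 with effective lengths and −0.27 to 0.32 leaving out 1 library. Slopes reversed for Nid1 (0.0558 on TPM, 0.0295 with effective lengths), Lama2 (−0.0216 to 0.0840 leaving out 1 library) and Hspg2 (−0.102 to 0.0776, likewise). The causes were not tested. With 3 libraries a group and 1 per passage, small changes may be missed.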
